A study of Homo sapiens with 6 samples.

Results

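Transcripts of 36 genes that run mitosis were followed in SW480 cells in which PCYT2 was knocked down. The genes were taken by symbol: kinases and cyclins of mitotic entry, the transcription factors FOXM1 and MYBL2, proteins of the kinetochore and the spindle checkpoint, regulators of anaphase, partners of Aurora B, spindle motors and assembly factors, cytokinesis proteins, and the chromosome proteins TOP2A and MKI67. All 36 symbols matched 1 Ensembl identifier each among the 19655 genes listed in these libraries, and all 36 were among the 12756 genes tested, which had a mean of at least 0.5 FPKM over the 6 libraries. CENPE lay closest to that limit, with a mean of 0.998 FPKM.

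SW480 is an established human colorectal cancer line. RNA-Seq was done on cells that carried a nontargeting short hairpin RNA (shNT, 2 libraries), a first hairpin against PCYT2 (shPcyt2-1, 2 libraries) or a second one (shPcyt2-2, 2 libraries). PCYT2 makes CDP-ethanolamine, the activated precursor of phosphatidylethanolamine in the Kennedy pathway. The methods describe lentiviral delivery and puromycin selection for the hairpins against PCYT2, and whether the shNT cells were handled in the same way is not given in the sources used here. Each knockdown group stands on a single hairpin, so an effect of losing PCYT2 and another effect of that hairpin cannot be told apart within it. Nothing in the labels says that the 2 libraries of a group came from separate cultures, so the p-values measure only the spread between these libraries. The values were read as FPKM (fragments per kilobase of transcript, scaled to the size of the library), a level per length, which allows levels to be compared between genes. Each library listed between 18879 and 19301 genes. The depth in reads was not derived from these values, and no counting interval is given.

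A cell that enters mitosis raises the activity of cyclin-dependent kinase 1 with cyclins A and B, while Polo-like and Aurora kinases prepare centrosomes, chromosomes and kinetochores. The spindle checkpoint then holds back the anaphase-promoting complex, a ubiquitin ligase, until every kinetochore is attached, after which securin and cyclin B are degraded, sister chromatids part and the cleavage furrow closes. Most transcripts of this program build up late in the cell cycle, and the MuvB complex, with B-MYB (encoded by MYBL2) and FOXM1 as activators or with E2F4 and pocket proteins as repressors, acts on them through a short element called the cell cycle genes homology region (CHR). In bulk RNA, fewer dividing cells and less of a transcript in each dividing cell cannot be told apart.

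Promoter windows from RefSeq (GRCh38.p14), which run from 250 bases before the transcription start to 50 bases after it, were found for 30 of the 36 genes and made up 40 windows. AURKA, FOXM1, TTK, UBE2C, BIRC5 and TPX2 had none. The windows were searched on both strands for the CHR letters TTTGAA, for the CCAAT box (CCAAT) and for an E2F site (TTCCCGCC). CHR letters stood in 57.5% of the windows of the mitosis genes and in 15.2% of all 35116 windows, and a CCAAT box in 70% and 34.6%. Both were found in 45% of the windows of the mitosis genes and in 5.90% of all windows. The E2F letters were in 2 of the 40 windows (5%), those of CDC25B and CENPA, and in 3.16% of all windows. In 14 of the genes CHR letters lay wholly within the 70 bases before the start, and in 23 a CCAAT box lay wholly within the 130 bases before it.

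The 130 bases just before the start are printed for 7 genes, 5 of which were called in a comparison and 2 of which (CCNB2 and PLK1) show the arrangement in genes that were not. Capitals mark CHR letters and CCAAT boxes in either orientation (TTCAAA and ATTGG on the reverse strand). In CDCA8 the 2 motifs overlap in TTTGAATTGG. KIF23 is at chr15:69414219-69414348, CDCA8 at chr1:37692386-37692515, CCNB2 at chr15:59105016-59105145, PLK1 at chr16:23678759-23678888, HMMR at chr5:163460502-163460631, ANLN at chr7:36389732-36389861 and MYBL2 at chr20:43666984-43667113, all on the plus strand.
KIF23: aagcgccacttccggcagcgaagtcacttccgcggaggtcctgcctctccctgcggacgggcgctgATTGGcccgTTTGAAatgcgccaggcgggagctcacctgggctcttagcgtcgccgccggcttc
CDCA8: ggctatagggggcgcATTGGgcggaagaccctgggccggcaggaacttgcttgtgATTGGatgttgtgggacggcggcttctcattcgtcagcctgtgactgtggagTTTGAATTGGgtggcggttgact
CCNB2: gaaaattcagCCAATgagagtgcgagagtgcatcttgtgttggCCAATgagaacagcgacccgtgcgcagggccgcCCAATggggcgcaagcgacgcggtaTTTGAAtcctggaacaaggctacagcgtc
PLK1: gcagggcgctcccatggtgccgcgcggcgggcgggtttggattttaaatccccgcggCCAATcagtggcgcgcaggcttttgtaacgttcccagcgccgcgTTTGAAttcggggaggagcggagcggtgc
HMMR: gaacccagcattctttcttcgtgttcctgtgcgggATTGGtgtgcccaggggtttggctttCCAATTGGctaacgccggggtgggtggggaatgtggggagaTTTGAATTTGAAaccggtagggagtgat
ANLN: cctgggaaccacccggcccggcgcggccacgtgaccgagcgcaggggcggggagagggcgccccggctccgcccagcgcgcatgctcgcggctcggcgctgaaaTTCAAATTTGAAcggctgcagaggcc
MYBL2: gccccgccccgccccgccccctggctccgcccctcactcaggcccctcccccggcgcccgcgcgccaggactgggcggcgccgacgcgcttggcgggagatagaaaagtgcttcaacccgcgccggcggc
CCNB2 carried 3 CCAAT boxes ahead of its CHR letters, PLK1 1, and ANLN had CHR letters in both orientations side by side with no CCAAT box. The MYBL2 window had none of the 3 motifs, which says only that these letters are not in it. A match is a description of the sequence and was not measured as a bound site.

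PCYT2 (ENSG00000185813) was at 11.6 and 13.8 FPKM in the shNT libraries, at 7.11 and 7.36 FPKM with shPcyt2-1 and at 6.71 and 6.18 FPKM with shPcyt2-2. The hairpin libraries were all below the controls. Markers of colon epithelium fitted the labelled cells: 9 of 10 were expressed above the limit, KRT8 led at a mean of 3377 FPKM, and EPCAM, CDH1 and VIL1 were present in every library, while KRT20 was near 0. Markers of other cells were low or near 0. The limit was passed by 2 of 8 fibroblast markers (COL1A1 and LUM) and 2 of 6 leukocyte markers (CD14 and LYZ). Their levels were like those of the colon markers CDX1 and LGALS4. Fibroblast markers summed to between 2.28 and 4.13 FPKM per library (LUM the most abundant, mean 1.42 FPKM, COL3A1 at 0), leukocyte markers to between 2.31 and 3.23 FPKM (LYZ, mean 1.69 FPKM, PTPRC at 0) and endothelial markers to between 0.513 and 0.769 FPKM (CDH5, mean 0.486 FPKM). The summed level of the colon epithelium markers, which was mostly keratins, was 8214 and 8773 FPKM with shNT, 8434 and 8527 FPKM with shPcyt2-1, and 6261 and 6557 FPKM with shPcyt2-2. The lower sum with shPcyt2-2 lay in KRT8, KRT18 and KRT19, the 3 of 9 tested markers called lower there, while CDH1, VIL1 and CDX1 were above both controls in value. With shPcyt2-1, 2 of the 9 were called lower, CDX2, a transcription factor of the intestine (15.5 and 16.9 FPKM with shNT, 10.01 and 9.88 FPKM with shPcyt2-1), and the lectin gene LGALS4. LUM was called higher with shPcyt2-1 (0.789 and 0.863 FPKM with shNT, 2.17 and 2.24 FPKM with shPcyt2-1). The part of these shifts in any result was not tested.

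The control cells expressed the mitotic program at high levels. In the mean of the shNT libraries 26 of the 36 transcripts reached 10 FPKM, 31 lay above the median of all tested genes, and 4 lay above the 90th percentile: UBE2C (141 ± 12.4 FPKM, SD, n = 2), CDC25B (113 ± 7.27), PTTG1 (98.1 ± 13.1) and CDC20 (68.9 ± 1.97). CENPE (0.935 ± 0.296 FPKM) and CDC25C (3.36 ± 0.429 FPKM) were the lowest. The libraries of UBE2C lay above those of CDC25B, while many neighbors further down the order did not differ beyond their spread, such as CCNB1 (40.9 ± 2.88 FPKM) and TOP2A (39.9 ± 5.87 FPKM). The summed level of the 36 transcripts was 1074 and 995 FPKM with shNT, 1119 and 1117 FPKM with shPcyt2-1, and 1087 and 1074 FPKM with shPcyt2-2. Unscaled, each knockdown library exceeded both controls, although shPcyt2-2 replicate 2 and shNT replicate 1 were nearly level. The median over all tested genes was also above the shNT mean in each knockdown library, by 0.0082 to 0.082 on the log2 scale. Median-ratio size factors were 0.973 and 0.972 with shNT, 1.04 and 1.02 with shPcyt2-1, and 1.04 and 0.978 with shPcyt2-2. Divided by these factors, the sums no longer put each knockdown library above both controls.

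**Figure D1:**
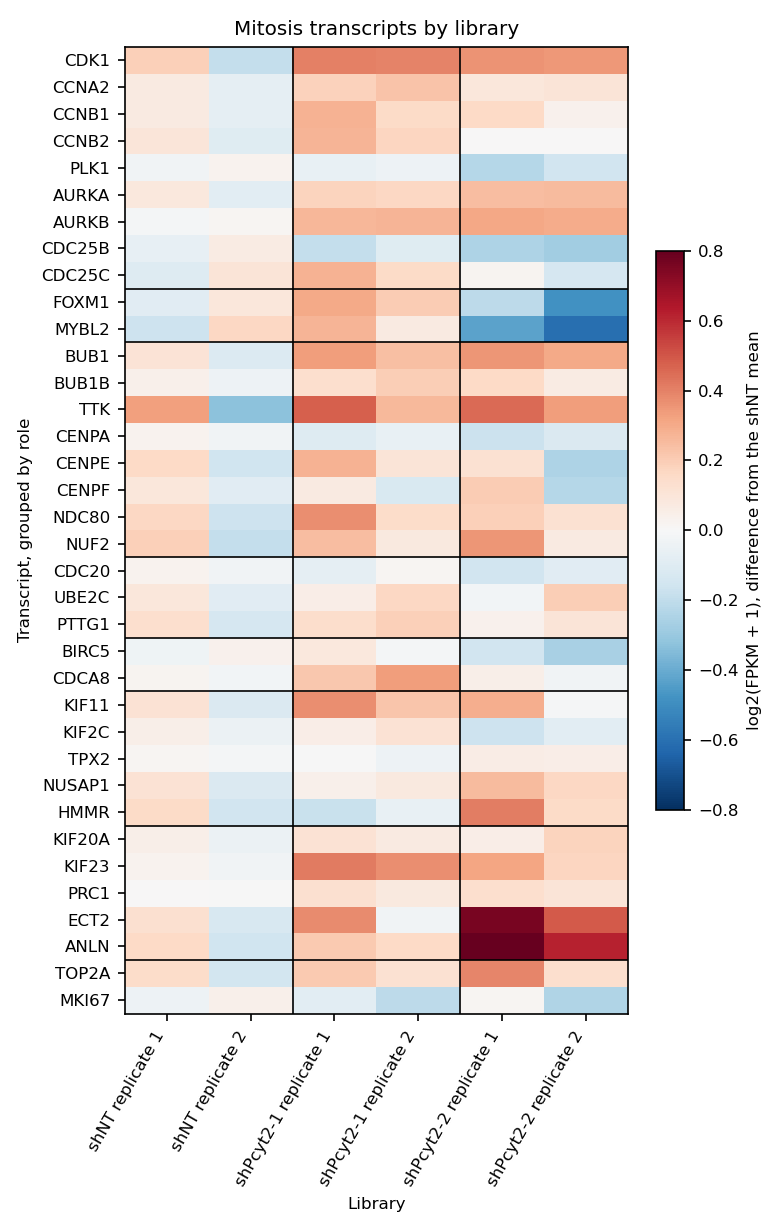
Each library's log2(FPKM + 1) as a difference from the mean of the 2 shNT libraries (color scale), for 36 mitosis transcripts grouped by role (rows) in 6 libraries (columns). ANLN and ECT2 are darkest red with shPcyt2-2, FOXM1 and MYBL2 are blue with shPcyt2-2 and red with shPcyt2-1, and shNT replicate 2 is blue for most transcripts.

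With shPcyt2-1, 5 of the 36 transcripts rose and none fell (limma on log2(FPKM + 1), adjusted p under 0.05 over all tested genes), which is 13.9% of the set, where 26.7% of all tested genes were called (16.5% higher and 10.1% lower). These were CDK1, AURKB, BUB1, CDCA8 and KIF23. With shPcyt2-2, 4 rose (AURKB, BUB1, ECT2 and ANLN) and 2 fell (CDC25B and MYBL2), or 16.7% of the set beside 12.4% of all tested genes (7.69% higher and 4.74% lower). The split of 4 higher and 2 lower became 3 and 4 with median-ratio scaling and with GC content and transcript length corrected for, and 3 and 3 with upper-quartile scaling. Between the hairpins, 3 were higher with shPcyt2-2 than with shPcyt2-1 (HMMR, ECT2 and ANLN) and 4 were lower (FOXM1, MYBL2, BIRC5 and CDCA8), or 19.4% beside 27.1% (12.9% higher and 14.2% lower). Both comparisons with shNT use the same shNT libraries, so AURKB and BUB1, which were called in each, do not stand on separate controls. With the 4 knockdown libraries set as 1 group against shNT, limma called none of the 36 transcripts, where 0.00784% of all tested genes, 1 gene, was called. At an unadjusted p under 0.05 there were 6 of the 36, beside 16.7% of all tested genes. The mean of both hairpins in the fit with 3 groups gave 5 higher and 1 lower, beside 16.8% of all tested genes (10.9% higher and 5.85% lower).

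The median log2 fold change of the 36 transcripts was 0.17 with shPcyt2-1 and 0.097 with shPcyt2-2, against 0.067 and 0.044 for all tested genes, and 28 and 24 of the 36 were positive (59.8% and 58.1% of all tested genes). Median-ratio scaling gave medians of 0.094 and 0.044 for the set, beside 0.00026 and -0.00036 for all tested genes. Without shNT replicate 2 the medians of the set were 0.047 and 0.026, below the 0.067 and 0.042 of all tested genes in the same fits. Without shNT replicate 1 they were 0.23 and 0.17, beside 0.064 and 0.044. Between the hairpins it was -0.060 (all tested genes -0.023). By libraries, 17 transcripts with shPcyt2-1 lay above both shNT libraries and 4 below (58.3% of the set, where 69.0% of all tested genes did not overlap, 43.3% above and 25.6% below). With shPcyt2-2, 14 lay above and 8 below (61.1%, beside 57.5%, 35.1% above and 22.4% below). The shPcyt2-2 libraries lay above the shPcyt2-1 libraries for 7 transcripts and below for 15 (61.1%, beside 67.3%, 30.7% above and 36.5% below). For 9 transcripts every knockdown library exceeded both controls, and for 3 every one was below them (33.3%, beside 30.2%, 20.7% above and 9.48% below). The 9 were CDK1, CCNA2, AURKA, AURKB, BUB1, BUB1B, KIF20A, KIF23 and PRC1, and the 3 were PLK1, CDC25B and CENPA. With each library corrected for GC content and transcript length across all genes, the median of the 36 was 0.020 with shPcyt2-1 and -0.012 with shPcyt2-2.

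The number of calls moved when single libraries were left out. Against shNT, the 5 calls with shPcyt2-1 grew in number without shNT replicate 1 and became fewer when any other library was left out. Over all tested genes the called share fell in each of these fits. The share of the set exceeded it without shNT replicate 1 and lay below it in the others. The 6 calls with shPcyt2-2 grew in number without shNT replicate 1 and became fewer when any other library was left out. In each of these fits the called share of all tested genes moved in the same direction, so the losses were not confined to the set. Between the hairpins, the 7 calls became fewer when any single knockdown library was left out, as did the calls over all tested genes. Where a group keeps 1 library, that library is assumed to vary like the other groups. Median-ratio scaling left 1 call with shPcyt2-1, that of KIF23, and turned the split of all called genes from 2109 higher and 1291 lower to 1422 and 1758 (with shPcyt2-2, from 981 and 604 to 763 and 879).

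**Figure D2:**
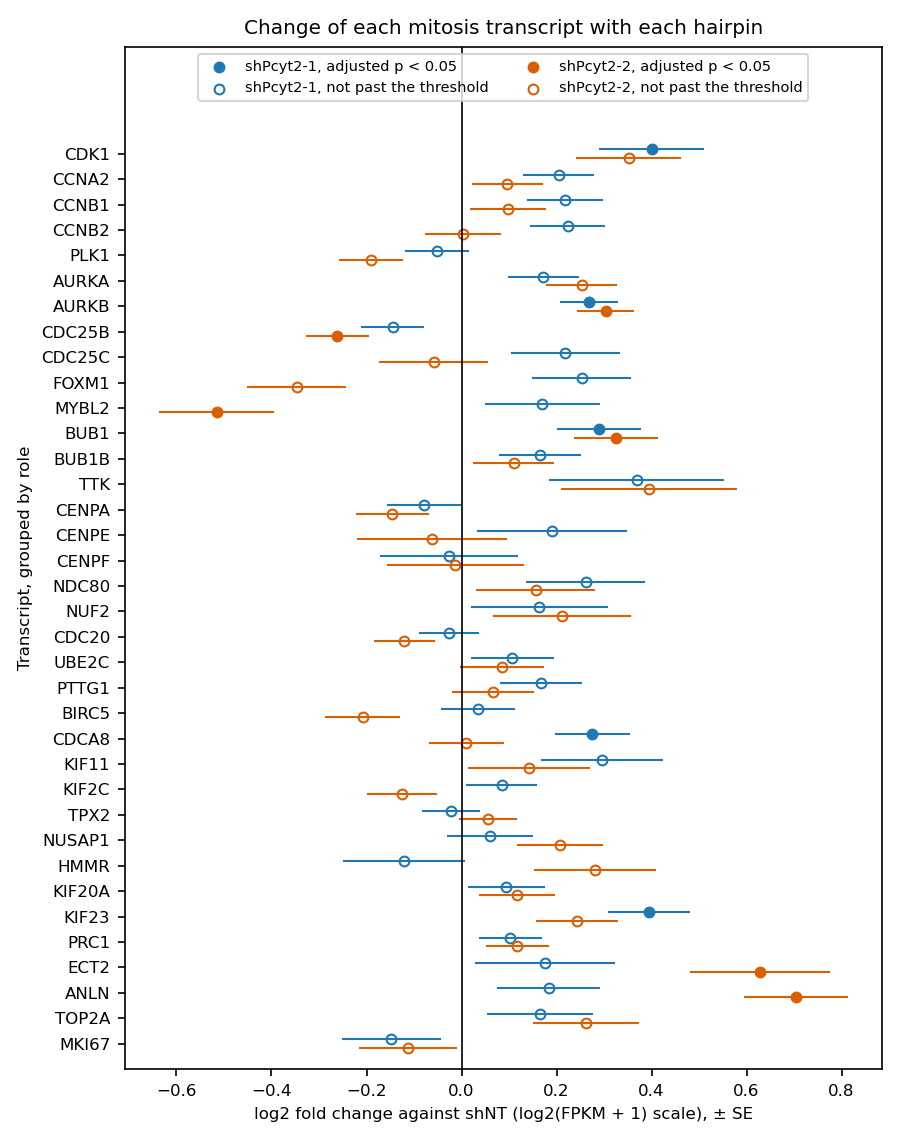
Log2 fold change against shNT (x axis, log2(FPKM + 1) scale) with its standard error from limma for 36 mitosis transcripts (y axis), with shPcyt2-1 in blue and shPcyt2-2 in orange, and filled points where the adjusted p was under 0.05. Most points lie within 0.4 of 0, and ANLN (0.70), ECT2 (0.63) and MYBL2 (-0.52) with shPcyt2-2 lie farthest out.

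Of the kinases, cyclins and phosphatases of mitotic entry, AURKB was called with both hairpins. AURKB (ENSG00000178999, GRCh38 chr17:8204733-8210600) is the kinase of the chromosomal passenger complex, which corrects faulty kinetochore attachments and drives cytokinesis. It was at 38.1 and 39.0 FPKM with shNT, 46.5 and 46.8 FPKM with shPcyt2-1, and 48.1 and 47.6 FPKM with shPcyt2-2. Both hairpins exceeded the controls in each library, and the replicates lay close together in each group. For shPcyt2-1, limma gave a log2 fold change of 0.27 ± 0.061 (SE, adjusted p = 0.0138), and for shPcyt2-2 one of 0.30 ± 0.061 (adjusted p = 0.0172). The first call was lost without shPcyt2-1 replicate 1 or 2 (adjusted p = 0.0984 and 0.0878) and with median-ratio scaling (adjusted p = 0.0648), and the second without shPcyt2-2 replicate 1 or 2 (adjusted p = 0.107 and 0.0626). CDK1 (ENSG00000170312, chr10:60778331-60794852), the kinase that starts mitosis, was at 30.9 and 23.4 FPKM with shNT, 35.9 and 35.7 FPKM with shPcyt2-1, and 34.8 and 34.4 FPKM with shPcyt2-2. The knockdown libraries agreed closely and the controls did not. CDK1 rose with shPcyt2-1 (log2 fold change 0.40 ± 0.11, limma adjusted p = 0.0282), while the value with shPcyt2-2, 0.35, had an adjusted p of 0.0675. Leaving out any library but shNT replicate 1 lost the CDK1 call (adjusted p between 0.0538 and 0.0884), and without shNT replicate 2 the value fell to 0.21. With GC content and transcript length corrected for, it was 0.19 (adjusted p = 0.130).

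No cyclin of the set was called in the main fit. CCNB1 and CCNB2 passed with shPcyt2-1, and CCNB2 between the hairpins, once the replicate number was added as a block. None of these calls was left with GC content and transcript length also removed. CCNA2 and CCNB1, the activating subunits of CDK1, had log2 fold changes of 0.20 and 0.22 with shPcyt2-1 (limma adjusted p = 0.0732 for each) and of 0.097 and 0.098 with shPcyt2-2. CCNB2, a second B-type cyclin, was at 36.5 and 31.9 FPKM with shNT, 41.4 and 38.6 FPKM with shPcyt2-1, and 34.2 and 34.1 FPKM with shPcyt2-2. Its shPcyt2-1 libraries lay above all others (0.22, adjusted p = 0.0667), and its shPcyt2-2 libraries lay within the range of the controls (0.0031). CDC25B (ENSG00000101224, chr20:3786772-3806121), the phosphatase that switches on CDK1 at the centrosome, fell with shPcyt2-2. It was at 108 and 118 FPKM with shNT, 98.9 and 105 FPKM with shPcyt2-1, and 95.3 and 93.1 FPKM with shPcyt2-2, so every knockdown library was below both controls. Its log2 fold change in the limma fit reached -0.26 ± 0.066 for shPcyt2-2 (adjusted p = 0.0356) and -0.14 for shPcyt2-1 (adjusted p = 0.132). The call was lost without shNT replicate 2, shPcyt2-1 replicate 2, or shPcyt2-2 replicate 1 or 2 (adjusted p up to 0.146). PLK1, the Polo-like kinase of spindle poles and kinetochores, had -0.19 with shPcyt2-2 (adjusted p = 0.0937), AURKA, the centrosomal Aurora kinase, had 0.17 and 0.25 (adjusted p = 0.114 and 0.0560), and CDC25C, another CDK1 phosphatase, had 0.22 and -0.059.

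FOXM1 and MYBL2, the transcription factors of the set, differed between the hairpins. FOXM1 (ENSG00000111206, chr12:2857681-2877155), a forkhead activator of late cell cycle genes, was at 22.1 and 25.2 FPKM with shNT, 29.3 and 27.3 FPKM with shPcyt2-1, and 20.3 and 16.6 FPKM with shPcyt2-2. The shPcyt2-1 libraries were the highest and the shPcyt2-2 libraries the lowest, with no overlap. MYBL2 (ENSG00000101057, chr20:43667019-43716496), which encodes B-MYB, was at 17.1 and 21.7 FPKM with shNT, 23.4 and 20.3 FPKM with shPcyt2-1, and 14.0 and 12.3 FPKM with shPcyt2-2. Its shPcyt2-2 libraries lay below all others, and its shNT and shPcyt2-1 libraries overlapped. With shPcyt2-2, FOXM1 was 0.60 ± 0.10 lower than with shPcyt2-1 on the log2 scale (-0.60, limma adjusted p = 0.00364) and MYBL2 0.69 ± 0.12 lower (-0.69, adjusted p = 0.00394). Both stayed past the threshold in all 18 alternatives, with values from -0.74 to -0.46 for FOXM1 and from -0.78 to -0.59 for MYBL2. Against shNT, MYBL2 fell with shPcyt2-2 (-0.52 ± 0.12, adjusted p = 0.0282), a call that was lost without shNT replicate 2 (-0.35, adjusted p = 0.137) or without shPcyt2-2 replicate 1 or 2 (adjusted p = 0.106 and 0.125). FOXM1 did not pass against shNT with either hairpin (0.25 with shPcyt2-1 and -0.35 with shPcyt2-2, the latter at a limma adjusted p of 0.0595), although the fall with shPcyt2-2 passed under 5 of the 18 alternatives (median-ratio scaling, upper-quartile scaling, robust variances, the correction for GC content and transcript length, and without shNT replicate 1). Exons of FOXM1 overlap those of ITFG2 on the opposite strand (mean 7.70 FPKM), and whether the counting used strand is not given in the sources used here.

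Among the checkpoint and kinetochore transcripts, BUB1 was the only one of 8 that was called. BUB1 (ENSG00000169679, chr2:110637698-110678114), a checkpoint kinase that marks centromeric chromatin, was at 20.8 and 17.7 FPKM with shNT, 24.5 and 22.9 FPKM with shPcyt2-1, and 24.7 and 23.9 FPKM with shPcyt2-2. Neither control reached the lowest knockdown library. In the limma fit its change on the log2 scale was 0.29 ± 0.088 (adjusted p = 0.0395) for the first hairpin and 0.33 ± 0.088 (adjusted p = 0.0439) for the second. These values were 0.14 and 0.19 with GC content and transcript length corrected for, and 0.18 and 0.22 without shNT replicate 2. Both calls were lost under 11 of the 18 alternatives, among them leaving out any library but shNT replicate 1 (adjusted p between 0.0530 and 0.223). TTK, the MPS1 kinase that starts checkpoint signaling, had values as large, 0.37 and 0.40, but its shNT libraries were at 8.19 and 4.82 FPKM and it was not called (adjusted p = 0.165 and 0.180). BUB1B, which encodes the checkpoint protein BUBR1, had 0.17 and 0.11. NDC80 and NUF2, subunits of the complex that grips microtubules, had 0.26 and 0.16 with shPcyt2-1 and 0.16 and 0.21 with shPcyt2-2. CENPA, the histone H3 variant of centromeres, had -0.080 and -0.15, and its 4 knockdown libraries were below both controls. The kinetochore motor CENPE and the kinetochore protein CENPF overlapped between all groups.

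No anaphase regulator was called. CDC20, the activator of the anaphase-promoting complex, was at 70.3 and 67.5 FPKM with shNT, 65.6 and 69.7 FPKM with shPcyt2-1, and 61.8 and 64.7 FPKM with shPcyt2-2. Its log2 fold changes were -0.026 and -0.12. UBE2C, the ubiquitin-conjugating enzyme of the complex, had 0.11 and 0.086, and PTTG1, which encodes securin, had 0.17 and 0.067. The libraries of UBE2C overlapped in every comparison, and 4 pseudogenes are named after it, with which it could share reads.

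The partners of Aurora B in the passenger complex separated the hairpins. CDCA8 (ENSG00000134690, chr1:37692418-37709719), which encodes borealin, was at 14.8 and 14.3 FPKM with shNT, 17.1 and 18.6 FPKM with shPcyt2-1, and 15.1 and 14.3 FPKM with shPcyt2-2. The shPcyt2-1 libraries alone stood above the rest. CDCA8 rose with shPcyt2-1 (0.27 ± 0.079, limma adjusted p = 0.0326) and was lower with shPcyt2-2 than with shPcyt2-1 (-0.27, adjusted p = 0.0353). BIRC5 (ENSG00000089685, chr17:78214186-78225636), which encodes survivin, was at 18.7 and 19.7 FPKM with shNT, 20.4 and 19.0 FPKM with shPcyt2-1, and 17.1 and 15.8 FPKM with shPcyt2-2. Its shPcyt2-2 libraries were the lowest, with -0.24 ± 0.078 between the hairpins (adjusted p = 0.0474). Each of these between-hairpin calls was lost without any 1 of the 4 knockdown libraries (adjusted p between 0.0693 and 0.295), and the CDCA8 call against shNT without shNT replicate 1 or 2 or shPcyt2-1 replicate 1 or 2 (adjusted p between 0.0513 and 0.219).

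Of 5 spindle motors and assembly factors, HMMR alone was called, and only between the hairpins. HMMR (ENSG00000072571, chr5:163460203-163491945), a microtubule-binding protein of spindle poles, was at 9.08 and 7.12 FPKM with shNT, 6.99 and 7.68 FPKM with shPcyt2-1, and 11.0 and 9.05 FPKM with shPcyt2-2. The shPcyt2-2 libraries were above both shPcyt2-1 libraries and overlapped the controls. The difference was 0.40 ± 0.13 (limma adjusted p = 0.0454), and leaving out any 1 of the 4 knockdown libraries lost it (adjusted p between 0.0557 and 0.229). An antisense gene, HMMR-AS1, overlaps its exons. KIF11, the motor that pushes spindle poles apart, had 0.30 and 0.14 against shNT, and KIF2C, a kinesin that shortens microtubules, had 0.084 and -0.13. TPX2, the Aurora A activator, had -0.022 and 0.056, and NUSAP1, a microtubule bundler, 0.060 and 0.21.

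Of 5 transcripts of cytokinesis, KIF23 was called with shPcyt2-1, and ECT2 and ANLN with shPcyt2-2. All 5 had positive values with each hairpin, where 59.8% (shPcyt2-1) and 58.1% (shPcyt2-2) of all tested genes did. ANLN (ENSG00000011426, chr7:36389806-36453791), which encodes anillin, the scaffold that ties actin, myosin and septins together in the contractile ring, was at 26.2 and 20.8 FPKM with shNT, 27.2 and 26.2 FPKM with shPcyt2-1, and 41.2 and 36.3 FPKM with shPcyt2-2. The shPcyt2-2 libraries stood well above all others, and the shNT and shPcyt2-1 libraries overlapped. ANLN rose by 0.70 ± 0.11 with shPcyt2-2 against shNT (limma adjusted p = 0.00748), the largest change of the set, and differed by 0.52 ± 0.11 between the hairpins (adjusted p = 0.00845). Both calls were lost without shPcyt2-2 replicate 1 (adjusted p = 0.0872 and 0.0708). Exons of ANLN overlap those of KIAA0895 on the opposite strand (mean 4.80 FPKM).

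ECT2 (ENSG00000114346, chr3:172750682-172821474), the exchange factor that activates RhoA at the cell equator, was at 13.1 and 10.8 FPKM with shNT, 15.8 and 11.7 FPKM with shPcyt2-1, and 20.9 and 17.2 FPKM with shPcyt2-2. Its shPcyt2-2 libraries were above all others, although replicates differed in each group. ECT2 rose by 0.63 ± 0.15 with shPcyt2-2 (limma adjusted p = 0.0282) and differed by 0.45 ± 0.15 between the hairpins (adjusted p = 0.0492). The first call was lost without shNT replicate 2 or without shPcyt2-2 replicate 1 or 2 (adjusted p between 0.0606 and 0.187), and the second without shPcyt2-1 replicate 2 or without shPcyt2-2 replicate 1 or 2 (adjusted p between 0.0741 and 0.267). The difference between the hairpins passed in only 10 of the 18 alternatives and was also lost with a pseudocount of 0.1 or 0.5 (adjusted p = 0.0526 and 0.0504), with robust variances, without the variance trend and with no expression limit. KIF23 (ENSG00000137807, chr15:69414246-69448427), the kinesin of centralspindlin, was at 8.66 and 8.29 FPKM with shNT, 11.6 and 11.3 FPKM with shPcyt2-1, and 10.8 and 9.69 FPKM with shPcyt2-2. The controls were lowest, with no overlap. KIF23 had a value of 0.24 with shPcyt2-2 (limma adjusted p = 0.0939). It rose with shPcyt2-1 (0.39 ± 0.086, adjusted p = 0.0121), and this value fell to 0.24, still called, with GC content and transcript length corrected for. That call was lost without shNT replicate 2 or without shPcyt2-1 replicate 1 or 2 (adjusted p between 0.0502 and 0.0927). PRC1, which bundles the central spindle, had 0.10 and 0.12, and KIF20A, the kinesin that carries the passenger complex there, 0.094 and 0.12.

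MKI67 and TOP2A, chromosome proteins used as proliferation markers, were not called. MKI67, which encodes the antigen Ki-67, was at 10.8 and 11.5 FPKM with shNT, 10.4 and 9.50 FPKM with shPcyt2-1, and 11.3 and 9.27 FPKM with shPcyt2-2. Its log2 fold changes were -0.15 and -0.11 (limma adjusted p = 0.312 and 0.491), and with GC content and transcript length corrected for it passed as a fall with shPcyt2-1. TOP2A, the topoisomerase that untangles sister chromatids, had 0.17 and 0.26 (adjusted p = 0.295 and 0.147), and its libraries overlapped between the groups.

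Other genes of the cell cycle were counted in 10 lists with 193 tested genes in all, 58 of which were called with shPcyt2-1 (53 higher and 5 lower, 30.1%), 27 with shPcyt2-2 (19 higher and 8 lower, or 16 and 14 with median-ratio scaling, 14.0%) and 50 between the hairpins (10 higher with shPcyt2-2 and 40 lower, 25.9%). These shares stand beside 26.7%, 12.4% and 27.1% of all tested genes. With all 4 knockdown libraries as 1 group, limma called none of the 193 (35 had an unadjusted p under 0.05). The first count fell most without shPcyt2-1 replicate 1, being lower in each of the 10 lists. It also fell without shPcyt2-1 replicate 2 or either shNT library. The second fell most without either shPcyt2-2 library or shNT replicate 2, and slightly without either shPcyt2-1 library. The third fell when any single knockdown library was left out, and most without shPcyt2-1 replicate 1 or shPcyt2-2 replicate 2. Calls over all tested genes fell in each of these fits as well, beside the losses given below for single lists. The lists were chosen with earlier results of these data known, so their direction is a description.

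Of 25 DNA replication genes, 11 rose with shPcyt2-1 (44% called, beside 26.7% of all tested genes) and none fell. With shPcyt2-2, 2 rose and 1 fell (12%, beside 12.4%), and 9 were lower with shPcyt2-2 than with shPcyt2-1. Without shPcyt2-1 replicate 1 the 11 rises became 4, and the 9 became 2 without shPcyt2-1 replicate 1 or without shPcyt2-2 replicate 2. No call was left with shPcyt2-2 without its replicate 1. GINS1, a subunit of the replicative helicase, went from a mean of 6.79 FPKM with shNT to 12.4 FPKM with shPcyt2-1 and 11.9 FPKM with shPcyt2-2 (log2 fold change 0.78 and 0.72). RRM2, a subunit of ribonucleotide reductase, rose by 0.68 and 0.39, whereas CDT1, which loads the helicase, fell with shPcyt2-2 (-0.50). CDC45 (-0.67), a helicase cofactor, and RFC3 (-0.57), a clamp loader subunit, were lower with shPcyt2-2 than with shPcyt2-1.

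Of 40 other kinetochore and checkpoint genes, 10 rose and 1 fell with shPcyt2-1, 2 rose and 1 fell with shPcyt2-2, and 1 was higher and 11 lower with shPcyt2-2 than with shPcyt2-1. The called shares against shNT were 27.5% and 7.5%, beside 26.7% and 12.4% of all tested genes. The 10 rises became 2 without shPcyt2-1 replicate 1 and 5 without shNT replicate 2, and the 11 lower values became 4 without shPcyt2-2 replicate 2 and 5 without shPcyt2-1 replicate 1. With shPcyt2-2 the split of 2 and 1 turned to 2 and 3 with median-ratio scaling, and no call was left without shPcyt2-2 replicate 1. SKA1, of the complex that tracks microtubule ends, rose from a mean of 1.46 to 3.03 FPKM with shPcyt2-1 (log2 fold change 0.71) and was at 1.48 FPKM with shPcyt2-2. SPDL1, an adaptor of kinetochore dynein, rose by 0.56 with shPcyt2-1, and the centromere protein CENPX fell (-0.31). With shPcyt2-2, CENPQ (0.79) and SKA2 (0.43) rose and CENPW fell (-0.43). Between the hairpins CENPQ was higher (0.48) and SKA1 (-0.70) and CENPW (-0.70) were lower with shPcyt2-2. The CENPQ call between the hairpins was lost without either shPcyt2-1 library or without shPcyt2-2 replicate 1.

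Subunits and factors of the anaphase-promoting complex (17 genes) gave 4 rises with shPcyt2-1, 3 rises and 2 falls with shPcyt2-2, and 2 lower values between the hairpins. The called shares against shNT were 23.5% and 29.4%, beside the same 26.7% and 12.4%. The 4 rises became 1 with median-ratio scaling or without either shPcyt2-1 library and 2 without shNT replicate 2. No call with shPcyt2-2 was left without shNT replicate 2 or shPcyt2-2 replicate 1, and 1 without shPcyt2-2 replicate 2. CDC23 rose with both hairpins (0.52 and 0.33), ANAPC5 with shPcyt2-1 (0.25) and ANAPC10 with shPcyt2-2 (0.48). UBE2S, which extends ubiquitin chains on its substrates, fell with shPcyt2-2 (-0.41), as did ANAPC15 (-0.33). ANAPC15 (-0.55) and CDC26 (-0.24) were lower with shPcyt2-2 than with shPcyt2-1. Exons of CDC23 overlap those of KIF20A.

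Of 8 condensin genes 2 rose with shPcyt2-1, NCAPG2 (0.39) and NCAPD3 (0.38), none was called with shPcyt2-2, and NCAPH2 (-0.37) and NCAPD3 (-0.37) were lower with shPcyt2-2 than with shPcyt2-1. The lower calls of NCAPH2 and NCAPD3 were both lost without shPcyt2-1 replicate 1 or without shPcyt2-2 replicate 2. Of 12 cohesin genes 3 rose with shPcyt2-1, with STAG1 (0.43) and PDS5A (0.42) the largest, and none was called with shPcyt2-2. In both lists 25% of the genes were called with shPcyt2-1, under the 26.7% of all tested genes. The condensin rises became 0 without either shPcyt2-1 library and 1 without either shNT library, and the cohesin rises became 0 without shPcyt2-1 replicate 1 or shNT replicate 2, and 1 without shPcyt2-1 replicate 2 or with median-ratio scaling. Between the hairpins PDS5B (0.44) and ESCO1 (0.43) were higher with shPcyt2-2 and CDCA5, which encodes sororin, was lower (-0.48). The calls of PDS5B and ESCO1 were both lost without either shPcyt2-1 library or without shPcyt2-2 replicate 1.

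Of 30 further spindle and cytokinesis genes 6 rose with shPcyt2-1, among them DEPDC1B (0.62) and CLASP1 (0.56), which stabilizes microtubule ends. With shPcyt2-2, FAM83D (0.35) and CKAP5 (0.29), a microtubule polymerase, rose and KNSTRN fell (-0.30). The 4 genes called between the hairpins were all lower with shPcyt2-2, led by CLASP2 (-0.71) and DEPDC1B (-0.49). The called shares against shNT were 20% and 10%, both under those of all tested genes. The 6 rises became 2 without shPcyt2-1 replicate 1 or shNT replicate 2 and 3 without shPcyt2-1 replicate 2, and no call with shPcyt2-2 was left without shNT replicate 2 or either shPcyt2-2 library. Of 19 further genes of mitotic entry and exit, 6 rose and 1 fell with shPcyt2-1, 1 rose with shPcyt2-2, and 1 was higher and 4 lower between the hairpins. These made up 36.8% of the list with shPcyt2-1 and 5.26% with shPcyt2-2, beside 26.7% and 12.4% of all tested genes. The 6 rises became 3 without shPcyt2-1 replicate 1, and with shPcyt2-2 median-ratio scaling gave 1 rise and 2 falls. WEE1, the kinase that holds CDK1 inactive, rose with both hairpins, from a mean of 11.5 FPKM to 17.3 and 19.9 FPKM (0.55 and 0.74). CKS1B, a small CDK subunit, rose with shPcyt2-1 (0.54) and BTG2, an antiproliferative gene, fell (-0.38). Between the hairpins ARPP19 (0.31) was higher and PKMYT1 (-0.46), a kinase related to WEE1, and CKS1B (-0.45) were lower with shPcyt2-2. The ARPP19 call was lost without either shPcyt2-1 library or without shPcyt2-2 replicate 1. Fewer genes of this list were lower without either shPcyt2-1 library or without shPcyt2-2 replicate 2.

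A list of 16 genes held MuvB subunits, pocket proteins, E2F factors and their DP partners, not all of which are subunits of the DREAM or MuvB complexes. It gave 3 rises with shPcyt2-1, 2 rises and 1 fall with shPcyt2-2, and 1 higher and 2 lower values between the hairpins. E2F7 and RB1, which are not subunits of those complexes, made up 2 of the 3 rises with shPcyt2-1, and RB1 1 of the 2 with shPcyt2-2. The called share was 18.8% with each hairpin, beside 26.7% and 12.4% of all tested genes. The 3 rises became 1 with median-ratio scaling or without shNT replicate 2 or either shPcyt2-1 library, and no call with shPcyt2-2 was left without shNT replicate 2 or shPcyt2-2 replicate 1. E2F7, an atypical E2F that represses transcription, rose from a mean of 1.13 to 3.83 FPKM with shPcyt2-1 (log2 fold change 1.18 ± 0.11, limma adjusted p = 0.000414) and was at 1.67 FPKM with shPcyt2-2 (-0.86 between the hairpins). RB1, the retinoblastoma protein, rose with both (0.39 and 0.51). RBL2, which encodes the pocket protein p130, rose with shPcyt2-2 (0.41, and 0.37 between the hairpins), and LIN37, a MuvB subunit, fell (-0.42, and -0.60 between the hairpins). The RBL2 call between the hairpins was lost when any single knockdown library was left out.

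Among 17 tested regulators of the G1 phase, 5 rose and 2 fell with shPcyt2-1, 4 rose and 2 fell with shPcyt2-2, and 3 were higher and 4 lower between the hairpins. The called shares against shNT were 41.2% and 35.3%, beside 26.7% and 12.4%. The 5 rises and 2 falls became 3 and 1 without shPcyt2-1 replicate 1, and the 4 rises and 2 falls became 1 and 0 without shPcyt2-2 replicate 1, 3 and 0 without its replicate 2, and 2 and 0 without shNT replicate 2. CCND1, which encodes cyclin D1, fell with shPcyt2-1 (-0.45) and rose with shPcyt2-2 (0.57), from a mean of 133 FPKM to 97.2 and 197 FPKM, a difference of 1.02 between the hairpins (limma adjusted p = 2.21e-05). Its kinase partner CDK6 rose with both (0.52 and 0.59), while CDK4 fell with shPcyt2-2 (-0.29, and -0.49 between the hairpins). CKS1B, described above, is also in this list. The inhibitor CDKN1C fell with shPcyt2-1 (-0.64) and was 0.93 higher with shPcyt2-2 than with shPcyt2-1, and CDKN2A fell with shPcyt2-2 (-0.32, and -0.66 between the hairpins). Of 10 genes linked to leaving the cell cycle, 4 rose and 1 fell with shPcyt2-1 and 3 rose with shPcyt2-2 (50% and 30%, beside 26.7% and 12.4% of all tested genes). The 3 rises became 0 without shNT replicate 2 or either shPcyt2-2 library. CITED2 (0.68) and KLF6 (0.63) rose and KLF4 fell (-0.38) with shPcyt2-1, and TXNIP (0.44) and SESN1 (0.41) rose with shPcyt2-2. The fall of KLF4 lost its call with the replicate number as a block and without any single library but shNT replicate 1. Between the hairpins KLF4 (0.62) and SESN1 (0.61) were higher and CITED2 (-0.51) and KLF6 (-0.49) lower with shPcyt2-2.

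The shNT libraries differed from each other across the mitotic set. Of the 36 transcripts, 28 were lower in shNT replicate 2 than in replicate 1 (77.8%, where 49.8% of all tested genes were), with a median difference of -0.14 on the log2 scale against 0.00065 for all tested genes. In relative terms the gap was largest for TTK (51.9% of the mean), CENPE (44.8%), NUF2 (30.5%) and CDK1 (27.6%), and smallest for PRC1 (0.406%). With shPcyt2-1, 23 of 36 were lower in replicate 2 (56.1% of all tested genes), and with shPcyt2-2, 27 of 36 (70.2% of all tested genes). These gaps moved with base composition. The Spearman correlation of the shNT gap with the GC content of the longest transcript was 0.81 across the 36 genes and 0.59 across 12739 tested genes with a value. Genes are not independent replicates, and the points share their libraries.

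Base composition also went with the changes. The longest transcripts of the mitosis genes had a median GC content of 45.5% (range 35.3% to 60.5%), against 49.5% over all tested genes. With shPcyt2-2 the log2 fold change against shNT fell with GC content across the 36 genes (Spearman correlation -0.68), with ECT2, ANLN and CDK1 between 37.0% and 40.0% GC and FOXM1 and MYBL2 at 55.6% and 60.5%. With shPcyt2-1 the correlation was -0.33, and across all tested genes it was -0.47 with shPcyt2-2 and -0.43 with shPcyt2-1. Between the hairpins it was -0.42 across the 36 and 0.029 across all tested genes. AURKB, at 55.6% GC, was above both controls with each hairpin. After that correction for GC content and length, BUB1 and CDK1 lost their calls with shPcyt2-1, BUB1 lost its call with shPcyt2-2, and all 7 calls between the hairpins were kept. FOXM1 and BIRC5 then also passed as falls with shPcyt2-2 against shNT, and HMMR and MKI67 as falls with shPcyt2-1, where the split became 3 higher and 2 lower.

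The genes lie on 14 chromosomes, with at most 5 on any 1 of them (chromosomes 1, 5, 15 and 20). Exons of 14 of them overlap another annotated gene, 11 on the opposite strand and 10 with a protein-coding gene. For BUB1B, CENPA (with SLC35F6, 8.42 FPKM) and NUSAP1 the overlap is on the same strand only, so reads of the neighbor could be held even if strand was used. The values of the 11 could hold reads of a neighbor if strand was not used. Among these are KIF20A with CDC23 and BRD8 (up to 19.4 FPKM), CDC25C with FAM53C (21.8 FPKM, above CDC25C itself) and CCNA2 with EXOSC9 (8.60 FPKM). Pseudogenes are named after 6 of the genes (CCNB2, AURKA, BUB1, CDC20, UBE2C and MKI67), whose reads could be shared with them.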

How the data were processed

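The authors deposited 1 table per library with a value per Ensembl identifier, taken here to be FPKM because the values are not whole and add up to 396467 to 402612 in each library, though a TPM table from which some genes were dropped would look alike. The sources name a sequencing company, 2 library kits and, in the submitters' processing notes, the builds GRCm38, mm10 and GRCh38. The aligner, the counter, the annotation and the use of strand are not given in the sources used here. A count-based package, named in the study's methods, cannot be run on such values, so limma was used, as the design allowed for. Names, positions, GC content and length (longest transcript) came from GENCODE release 29 (GRCh38), which named 90.6% of 21539 identifiers, and promoters from RefSeq (GRCh38.p14). Rows repeated within a library (115 identifiers) were summed, and identifiers with identical values in more than 1 library were merged, which left 19655 genes.

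The 12756 genes whose mean reached 0.5 were tested on the scale log2(FPKM + 1), which understates the change of low genes. The model was limma (3.58.1, R 4.3.3) with variances that follow a trend on the mean, and p-values were adjusted by Benjamini and Hochberg's approach over all tested genes. A gene was called at an adjusted p under 0.05. Single hairpins and their difference came from 1 fit with 3 groups, and the pooled comparison from a fit with 2 groups. The fits were tested on simulated data with independent noise for each gene. Those data held no shifts linked to GC content like the ones between the shNT libraries, so that test cannot speak to them. Named genes are the 36 members, PCYT2 and, of each list of pathway genes, the called genes with the 2 largest rises and the 2 largest falls in each comparison. The members and lists were chosen with earlier results of these data known. The alternatives, 18 in all, changed the pseudocount, expression limit, scaling, variance model and repeated rows, added the replicate number as a block, removed a smooth trend on GC content and length (mgcv 1.9.3), or left out each library. Figures were drawn with matplotlib 3.10.9.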

Additional observations from a re-analysis of the deposited data

Results flagged for a closer look

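All of the following are differences between the hairpins, shPcyt2-2 minus shPcyt2-1 on the log2(FPKM + 1) scale, which passed the limma test of the difference itself. Of the mitosis genes, FOXM1 (-0.60), MYBL2 (-0.69), BIRC5 (-0.24) and CDCA8 (-0.27) were lower and HMMR (0.40), ECT2 (0.45) and ANLN (0.52) higher with shPcyt2-2. In the other lists, taking the largest differences of each, CENPQ (0.48), PDS5B (0.44), ESCO1 (0.43), ARPP19 (0.31), RBL2 (0.37), CCND1 (1.02), CDKN1C (0.93), KLF4 (0.62) and SESN1 (0.61) were higher. The lower ones were SKA1 (-0.70), CENPW (-0.70), ANAPC15 (-0.55), CDC26 (-0.24), NCAPH2 (-0.37), NCAPD3 (-0.37), CDCA5 (-0.48), CLASP2 (-0.71), DEPDC1B (-0.49), PKMYT1 (-0.46), CKS1B (-0.45), E2F7 (-0.86), LIN37 (-0.60), CDKN2A (-0.66), CDK4 (-0.49), CDC45 (-0.67), RFC3 (-0.57), CITED2 (-0.51) and KLF6 (-0.49). Of all tested genes, 27.1% were called in the same comparison. When some single knockdown libraries were left out, calls were lost for CENPQ, PDS5B, ESCO1, ARPP19, RBL2, NCAPH2 and NCAPD3, among others. The same held for BIRC5, CDCA8, HMMR, ECT2 and ANLN. The lists of the anaphase-promoting complex, replication and leaving the cell cycle also held fewer lower values in some of these fits. The genes named here are therefore not all that lost a call.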

How the results depend on the processing

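No call of the 36 mitosis genes changed direction, and FOXM1 and MYBL2 kept their difference between the hairpins in all 18 alternatives. Among the other single calls, those of ANLN were kept in 16, those of AURKB (with each hairpin) and KIF23 in 15, that of MYBL2 against shNT in 13, that of ECT2 in 13 (10 between the hairpins), those of CDC25B and HMMR in 12, that of BIRC5 in 11, that of CDCA8 in 10 (12 between the hairpins), and those of BUB1 (with each hairpin) and CDK1 in 7. Of the 36 mitosis genes, 5 were called with shPcyt2-1, and the number was 2 with no expression limit, 1 with median-ratio scaling, 2 with upper-quartile scaling, 3 without the variance trend and 0 to 13 with each library left out. With shPcyt2-2 (6 called) it was 0 with no expression limit, 2 without the variance trend and 0 to 12 with each library left out. Between the hairpins (7 called) it was 2, 3 and 2 to 9 in the same settings. Over all tested genes, 26.7% (shPcyt2-1), 12.4% (shPcyt2-2) and 27.1% (between the hairpins) were called in the main fit. These shares fell to 9.38%, 0.631% and 12.4% with no expression limit, and to 23.1%, 8.05% and 25.0% without the variance trend. With shPcyt2-1 the share was 24.9% with median-ratio scaling and 25.3% with upper-quartile scaling. With no expression limit 19655 genes were tested in place of 12756 and the variances changed as well. The cause of these moves was not tested. The mean of both hairpins gave 6 calls where the pooled fit gave 0. The median log2 fold change of the set moved from 0.17 to 0.020 (shPcyt2-1), from 0.097 to -0.012 (shPcyt2-2) and from 0.12 to 0.0059 (pooled) once GC content and transcript length were corrected for. With each library left out it ranged from 0.047 to 0.23, from 0.026 to 0.17, from -0.093 to -0.051 (between the hairpins) and from 0.042 to 0.21 (pooled). Calls among the other cell cycle genes ranged from 20 to 58, from 2 to 27 and from 26 to 54 with each library left out.

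With the replicate number as a block, 8 mitosis genes were called with shPcyt2-1 (gained CCNB1, CCNB2 and KIF11), 8 with shPcyt2-2 (gained AURKA and TOP2A) and 8 between the hairpins (gained CCNB2). With GC content and length removed in the same fit, an alternative added after seeing the data, there were 3, 5 and 7 calls, with none of these 6 gains left, and the medians were again 0.020, -0.012 and 0.0059. The groups share only replicate numbers: deviations of same-numbered libraries correlated at 0.0027, 0.062 and 0.19 across all tested genes and at 0.19, 0.13 and 0.60 across the 36, and with 2 numbers a group they were not taken to pair the libraries. The number of libraries limits every value, and the depth in reads is unknown.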
